A study of Mus musculus with 6 samples.

Results

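The contactins and the L1 family are immunoglobulin-domain adhesion molecules of the neuronal surface, and their transcripts were followed in cultured mouse cerebellar granule neurons (CGNs). The set was a fixed list of 10 genes, 6 contactins (Cntn1 to Cntn6) and 4 L1 family members (L1cam, Nrcam, Chl1 and Nfasc), out of the 55341 gene symbols of each count table. The series compared 3 CGN cultures labelled DMSO, the vehicle, with 3 labelled GSK-126, an inhibitor of the H3K27 methyltransferase EZH2, to ask how blocking EZH2 alters gene expression in maturing neurons. Agent and replicate number were all that the labels stated of a culture, without a dose or a day of addition. By the study's methods all cultures came from wild-type CD1-IGS pups about 1 week old, with the granule neuron precursors of pooled litters enriched on a Percoll gradient, plated, and exposed to cytosine arabinoside to stop division of other cells, so that DMSO and GSK-126 cultures shared all of these steps. No transgene or deletion was used, and each replicate stands for a pool of litters rather than for 1 animal.

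Contactins are held in the membrane by a lipid anchor, whereas L1 family members cross the membrane and bind the spectrin skeleton through ankyrins. Both kinds bind to each other and to Caspr proteins, receptor phosphatases, tenascins and semaphorin receptors, and together they guide axons, hold fibres in bundles and place sodium channels at the axon initial segment and node. In the cerebellum Cntn2, also known as TAG-1, marks granule neurons that have left the cell cycle but not yet migrated, and Cntn1 follows as their parallel fibres extend. EZH2 places the repressive mark H3K27me3, which gathers at promoters rich in CG dinucleotides.

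The L1 family shares a short cytoplasmic motif, phenylalanine, isoleucine, glycine, a variable residue and tyrosine, that binds ankyrin. The codons of this motif are shown for these 4 genes, and the lipid-anchored contactins were not searched for it. Each line gives the sense strand 5′ to 3′ of the longest annotated coding sequence in GENCODE M21 (GRCm38), with the 15 bases of the motif in capitals and 30 coding bases on either side.
L1cam: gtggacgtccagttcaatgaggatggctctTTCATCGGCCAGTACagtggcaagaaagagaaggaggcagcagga
Nrcam: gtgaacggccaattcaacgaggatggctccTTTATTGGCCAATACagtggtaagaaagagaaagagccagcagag
Nfasc: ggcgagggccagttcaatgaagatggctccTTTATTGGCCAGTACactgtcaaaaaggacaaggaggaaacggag
Chl1: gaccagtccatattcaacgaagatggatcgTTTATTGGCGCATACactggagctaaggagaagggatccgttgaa
The motif occurred 1 time in each coding sequence and lay inside a coding exon, at chrX:73855122-73855136 on the minus strand for L1cam, chr12:44598486-44598500 on the plus strand for Nrcam, chr1:132570507-132570521 on the minus strand for Nfasc and chr6:103729249-103729263 on the plus strand for Chl1. Counting bases of the motif from 1 at its 5′ end, Nfasc differed from L1cam by C3T and C6T, and Nrcam by C3T, C6T and G12A. Chl1 differed by C3T, C6T, C10G, A11C and G12A, and was the least like L1cam of the other 3 members, with 10 of 15 bases identical against 13 for Nfasc and 12 for Nrcam. Across all annotated transcripts the longest identical stretch shared by any pair of the 10 genes was 44 bases, between Cntn3 and L1cam, which is shorter than a read as sequenced here.

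The promoters of Nrcam, Cntn5 and Cntn3 are shown because H3K27me3 gathers at CG-rich promoters and these windows include CG-rich and CG-free ones. Each is the 250 bases before a RefSeq transcript start on GRCm38.p6, 5′ to 3′ in the direction of the gene, with CG dinucleotides in capitals; none of these bases lay in an annotated exon, and the Cntn3 window lay inside the longer GENCODE span of that gene.
Nrcam, chr12:44328635-44328884, plus strand: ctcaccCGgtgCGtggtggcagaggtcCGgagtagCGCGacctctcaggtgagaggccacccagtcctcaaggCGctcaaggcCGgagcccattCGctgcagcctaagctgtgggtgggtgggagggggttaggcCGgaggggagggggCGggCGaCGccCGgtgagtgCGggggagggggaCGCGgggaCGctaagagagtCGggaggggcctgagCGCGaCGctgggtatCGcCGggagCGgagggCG
Cntn5, chr9:10904776-10905025, minus strand: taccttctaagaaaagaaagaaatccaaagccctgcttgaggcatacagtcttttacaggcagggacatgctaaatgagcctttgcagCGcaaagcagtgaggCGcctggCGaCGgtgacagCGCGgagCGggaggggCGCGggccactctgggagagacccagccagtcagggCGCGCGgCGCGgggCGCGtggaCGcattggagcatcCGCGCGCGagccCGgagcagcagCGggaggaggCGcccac
Cntn3, chr6:102464668-102464917, minus strand: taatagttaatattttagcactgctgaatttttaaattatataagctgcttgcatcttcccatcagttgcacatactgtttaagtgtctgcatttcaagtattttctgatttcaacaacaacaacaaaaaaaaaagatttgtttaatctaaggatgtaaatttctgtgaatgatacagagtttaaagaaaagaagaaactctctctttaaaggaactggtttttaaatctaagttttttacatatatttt
The motif searched was CG, which reads the same on both strands, and 92.1% of the 32851 windows of this kind held at least 1. The Nrcam window held 25 CG and the Cntn5 window 24, more than 89.3% and 88% of all windows, while the Cntn3 window held 0, as did 7.87% of all windows. Over the 16 windows of the 10 members the count ran from 0 to 26, against a median of 6 over all windows. These counts describe the windows, and no histone mark was measured in these libraries.

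The 6 libraries held from 8058760 to 12047837 counts over genes, and 16343 genes passed the filter on low counts, among them 10 of the 10 members. CPM below is the read count normalised for library size with TMM factors. Fold changes come from an edgeR quasi-likelihood fit on the whole table that compared GSK-126 with DMSO within replicate number. Neither the labels nor the study's methods state that DMSO and GSK-126 cultures of the same number came from the same litters. The pairing is therefore an assumption. In this paired fit 365 genes were higher with GSK-126 at an adjusted p under 0.05 (2.23% of those tested) and 232 were lower (1.42%). Without the replicate number in the fit edgeR called 0 genes (0%), with 981 at an unadjusted p under 0.05, so that every call below holds in the paired fit and is lost without the pairing. Granule neuron markers summed to 3230 to 4520 CPM with DMSO and 2360 to 3450 CPM with GSK-126, led by Zic1, and were present in all libraries as the label requires. Markers of other cells were present too: astrocyte and Bergmann glia markers summed to 2090 to 7080 CPM, led by Gfap, and fibroblast markers to 6700 to 9750 CPM, led by Col1a1. No marker of any list was at 0 in all 6 libraries.

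The transcript levels split the set into 6 abundant genes and 4 scarce ones. Per length, as CPM divided by the kilobases of merged exon (RPKM), the order of the mean over all 6 libraries (± SD) was Cntn1 at 52.4 ± 8.54, Cntn2 at 41.9 ± 7.09, L1cam at 33.2 ± 4.63, Nrcam at 29.1 ± 2.00, Nfasc at 21 ± 4.74 and Chl1 at 19.8 ± 3.51. After a gap came Cntn6 at 2.80 ± 0.697, Cntn3 at 0.570 ± 0.125, Cntn4 at 0.517 ± 0.198 and Cntn5 at 0.397 ± 0.130. The ranges of neighbours in this order overlapped at every step but 2, from Chl1 to Cntn6 and from Cntn6 to Cntn3. By RPKM, Cntn1 stood above 94.9% of the genes tested and Cntn5 above 2.53%. Cntn1 and Cntn2 exchanged rank in 1 library, DMSO replicate 2, where Cntn2 was the higher. With the longest transcript in place of merged exons as the length, Nrcam moved to rank 2 with 62.0 RPKM, ahead of Cntn2, Nfasc and Chl1 changed places, and so did Cntn3 and Cntn4.

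**Figure D1:**
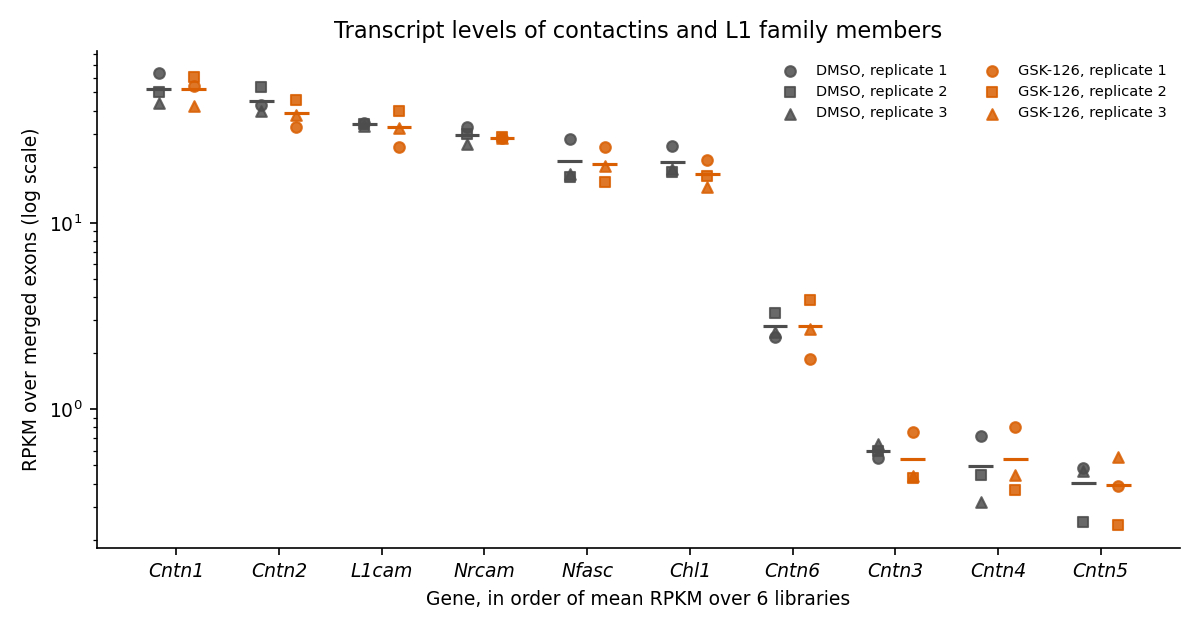
RPKM on a log axis for the 10 genes in each of the 6 libraries, with DMSO in grey, GSK-126 in orange, 1 symbol per replicate number and a bar at each group mean. Cntn1, Cntn2, L1cam, Nrcam, Nfasc and Chl1 lie between 15.5 and 63.3 RPKM in every library, Cntn6 between 1.87 and 3.87, and Cntn3, Cntn4 and Cntn5 below 1.

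No contactin or L1 family transcript passed the test for a change with GSK-126. In the paired edgeR fit 0 of the 10 members were called, beside the 2.23% called higher and 1.42% called lower in the whole table, and limma-voom with the same block also called 0 of 10. DESeq2 with the block called 0 of the 7 members to which it gave an adjusted p, and gave none to Cntn3, Cntn4 and Cntn5. At an unadjusted p under 0.05 there was 1, Cntn2. The fitted log2 fold change was negative for 9 of the 10, with a median of -0.05 against -0.00 over all genes tested. For 8 of the 10 it lay closer to 0 than the median absolute value over all genes, 0.19. That median covers genes of every level and was not matched to the members, so it is no measure of their stability. The DMSO and GSK-126 libraries overlapped for all 10 members, where 10.9% of genes tested did not overlap. For the 6 abundant members the 95% intervals together ran from -0.46 to 0.25 on the log2 scale. Among the 497 genes with a mean CPM in the range of these 6 (243 to 494), 68 were called (13.7%), and the smallest called change was 0.41 on the log2 scale.

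Cntn2 (chr1:132509427-132543256, minus strand), the adhesion molecule of premigratory granule neurons, had the fitted change farthest from 0 of the 10 members. It measured 396, 495 and 371 CPM in DMSO replicates 1, 2 and 3, and 303, 424 and 350 CPM in the GSK-126 replicates. The GSK-126 library was the lower one in each pair, although GSK-126 replicate 2 was above DMSO replicates 1 and 3. The fitted log2 fold change was -0.23 ± 0.103 (SE), a difference of -14.8% with a 95% interval from -27.2% to -0.227%. Its unadjusted p was 0.0473 and its adjusted p 0.292. The pairs differed by -0.38, -0.22 and -0.08 on the log2 scale, and without the replicate number the adjusted p was 0.853.

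A lower value in 3 of 3 pairs was not rare in these libraries, since 19.3% of genes tested had it and 19.7% were higher in 3 of 3 pairs. Besides Cntn2 it was seen for Chl1, and no member was higher in 3 of 3 pairs. Counting granule neuron markers in the same libraries, their sum was 3230, 4520 and 3570 CPM with DMSO and 2360, 3450 and 2660 CPM with GSK-126, highest in replicate 2 of each group like Cntn2, and 4 of the 8 were called lower (Neurod1, Rbfox3, Etv1 and Gabra6). The other 4 were not called, with log2 fold changes of -0.37 for Zic1, -0.27 for Zic2, 0.04 for Pax6 and 0.36 for Tubb3. Tubb3 was higher in 3 of 3 pairs. Unipolar brush cell markers had 1 of 4 called lower (Eomes), markers of GABAergic interneurons and Purkinje cells 1 of 8 tested (Slc32a1) and microglia markers 0 of 6. Called higher was 1 of 8 astrocyte and Bergmann glia markers, Gdf10 (log2 fold change 0.94, adjusted p = 0.0459). The fitted value was positive for 6 of these 8, while the abundant Slc1a3 (-0.23) and Aqp4 (-0.21) were lower in each pair. Of the oligodendrocyte lineage markers 1 of 9 was called higher, Cspg4 (0.89, adjusted p = 0.00846). There 6 of 9 were positive, and Pdgfra (-0.21), Sox10 (-0.10) and Mog (-0.05) were negative. Over all genes tested 2.23% were called higher and 1.42% lower. The part of these cell types in the Cntn2 values was not tested. In bulk libraries fewer cells of a type and less RNA per cell cannot be told apart.

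Cntn1 (chr15:92051165-92341967, plus strand), the contactin of extending parallel fibres and a ligand of receptor phosphatases, was the most abundant member per length. Its levels were 597, 475 and 412 CPM with DMSO and 510, 570 and 401 CPM with GSK-126. The pairs disagreed in direction, with GSK-126 above DMSO in replicate 2 and below it in replicates 1 and 3. The fitted log2 fold change was -0.00 ± 0.113 (adjusted p = 0.997), and its 95% interval ran from -15.9% to 18.7%. The ratio of Cntn1 to Cntn2 was 1.51, 0.959 and 1.11 with DMSO and 1.68, 1.34 and 1.14 with GSK-126 in replicates 1, 2 and 3. It was the higher with GSK-126 in each pair, with overlapping groups.

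The other 4 contactins together made up from 3.82% to 4.90% of the summed contactin RPKM of a library. Cntn6 (chr6:104492790-104863406, plus strand), a ligand of Notch and of Chl1, measured 15.9, 21.4 and 16.9 CPM with DMSO and 12.2, 25.2 and 17.5 CPM with GSK-126, and the groups shared their order, with replicate 2 the highest. Its log2 fold change was -0.03 ± 0.185 (adjusted p = 0.966). Cntn3 (chr6:102162655-102573101, minus strand) measured 3.69, 4.0 and 4.37 CPM with DMSO and 5.08, 2.89 and 2.96 CPM with GSK-126. The DMSO values lay inside the range of the GSK-126 values, and the log2 fold change was -0.17 ± 0.358 (adjusted p = 0.875).

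Cntn4 (chr6:105677660-106699310, plus strand), which binds the amyloid precursor protein, was the only member with a positive fitted value. Its levels were 6.11, 3.75 and 2.72 CPM with DMSO and 6.83, 3.13 and 3.76 CPM with GSK-126. Replicate 1 was the highest of each group, and the log2 fold change was 0.12 ± 0.322 (adjusted p = 0.898). Cntn5 (chr9:9660891-10904775, minus strand) was the scarcest member, with 9 to 22 reads per library. It measured 2.19, 1.13 and 2.13 CPM with DMSO and 1.75, 1.08 and 2.51 CPM with GSK-126, with replicate 2 the lowest of each group. Its log2 fold change was -0.05 ± 0.460 (adjusted p = 0.976) and its 95% interval, which these few reads leave wide, ran from -51.9% to 94.9%. For Cntn5, 6.4% of its exon bases overlap Gm32710 on the opposite strand, and reads of such genes may be mixed.

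Chl1 (chr6:103510586-103750211, plus strand), the close homologue of L1 that steers neurites and dendrites, had the second largest fitted difference. It measured 316, 230 and 240 CPM in the DMSO replicates and 265, 219 and 191 CPM in the GSK-126 replicates. Replicate 1 was the highest in both groups, and GSK-126 was the lower library in each pair. The pair differences were -0.25, -0.07 and -0.33, the fitted log2 fold change was -0.22 ± 0.104, and the difference was -14.0% with an interval from -26.6% to 0.707%. The unadjusted p was 0.0593 and the adjusted p 0.325.

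L1cam (chrX:73853778-73896105, minus strand), the founding member of the family and a receptor for itself, for contactins and for neuropilin complexes, was the most even gene of the set in the DMSO cultures and uneven in the others. It measured 254, 249 and 243 CPM with DMSO and 187, 293 and 237 CPM with GSK-126. The GSK-126 values lay on both sides of the DMSO values, and the SD was 5.34 CPM with DMSO and 52.8 CPM with GSK-126, a difference in spread that was not tested. The log2 fold change was -0.08 ± 0.129 (adjusted p = 0.815), with an interval from -22.3% to 15%.

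Nrcam (chr12:44328885-44601964, plus strand), which joins neurofascin at initial segments and nodes and serves as a subunit of semaphorin receptors, had the narrowest spread over the 6 libraries relative to its mean of the abundant members. Its levels were 434, 400 and 353 CPM with DMSO and 381, 385 and 381 CPM with GSK-126, the latter all inside the DMSO range. The log2 fold change was -0.05 ± 0.103 (adjusted p = 0.882), with an interval from -17.2% to 13.3%. Nfasc (chr1:132564690-132741797, minus strand), which encodes the neuronal and glial neurofascin isoforms, measured 398, 250 and 257 CPM with DMSO and 362, 233 and 285 CPM with GSK-126. Replicate 1 was far above the other replicates in both groups, and the log2 fold change was -0.03 ± 0.104 (adjusted p = 0.925), with an interval from -16.5% to 14.7%. Gene counts pool the isoforms of Nfasc, so that a shift between them could not be seen.

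**Figure D2:**
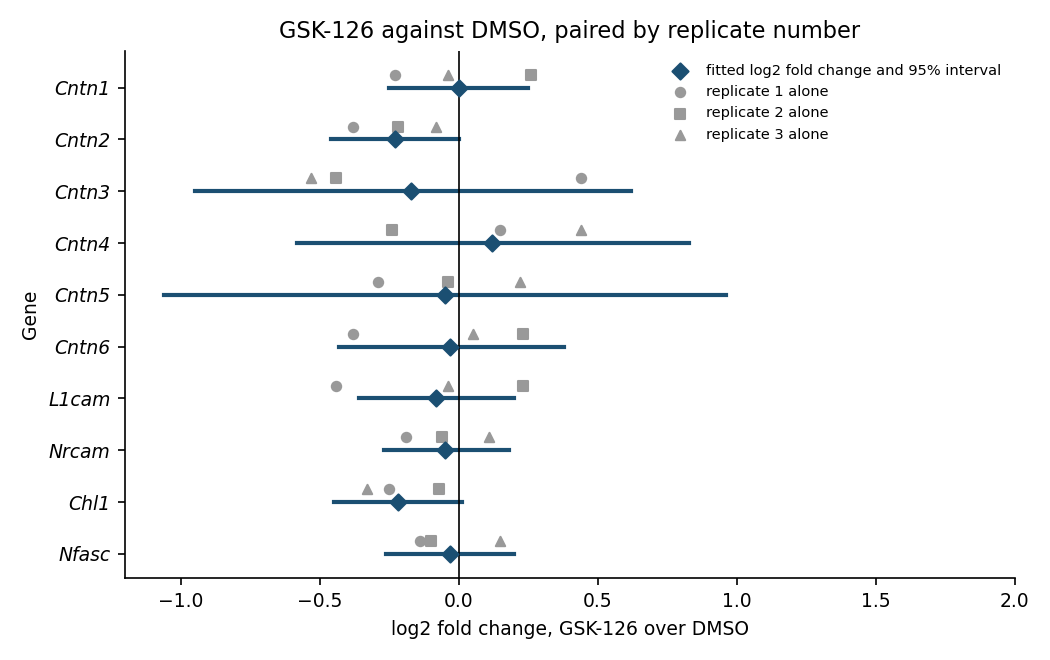
Log2 fold change of GSK-126 over DMSO for each gene, with the fitted value as a diamond, its 95% interval as a line and the 3 single replicate pairs as grey symbols. Cntn2 and Chl1 have all 3 pairs below 0, with fitted values of -0.23 and -0.22, and the intervals of Cntn3, Cntn4 and Cntn5 are the widest.

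The replicate term of the paired fit, a test added after the values were seen, called 1 of the 10 members, Nfasc (adjusted p = 0.0129), a share close to the 11.6% of genes tested that it called. Chl1 came next with an adjusted p of 0.0761 and Cntn2 with 0.101. The astrocyte and Bergmann glia markers had the same order as Nfasc, with 6760, 2090 and 4060 CPM in the DMSO replicates and 7080, 2140 and 3610 CPM in the GSK-126 replicates. Oligodendrocyte lineage markers summed to 660, 447 and 697 CPM with DMSO and 828, 515 and 726 CPM with GSK-126, lowest in replicate 2. Their part in the Nfasc and Chl1 levels was not tested.

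**Figure D3:**
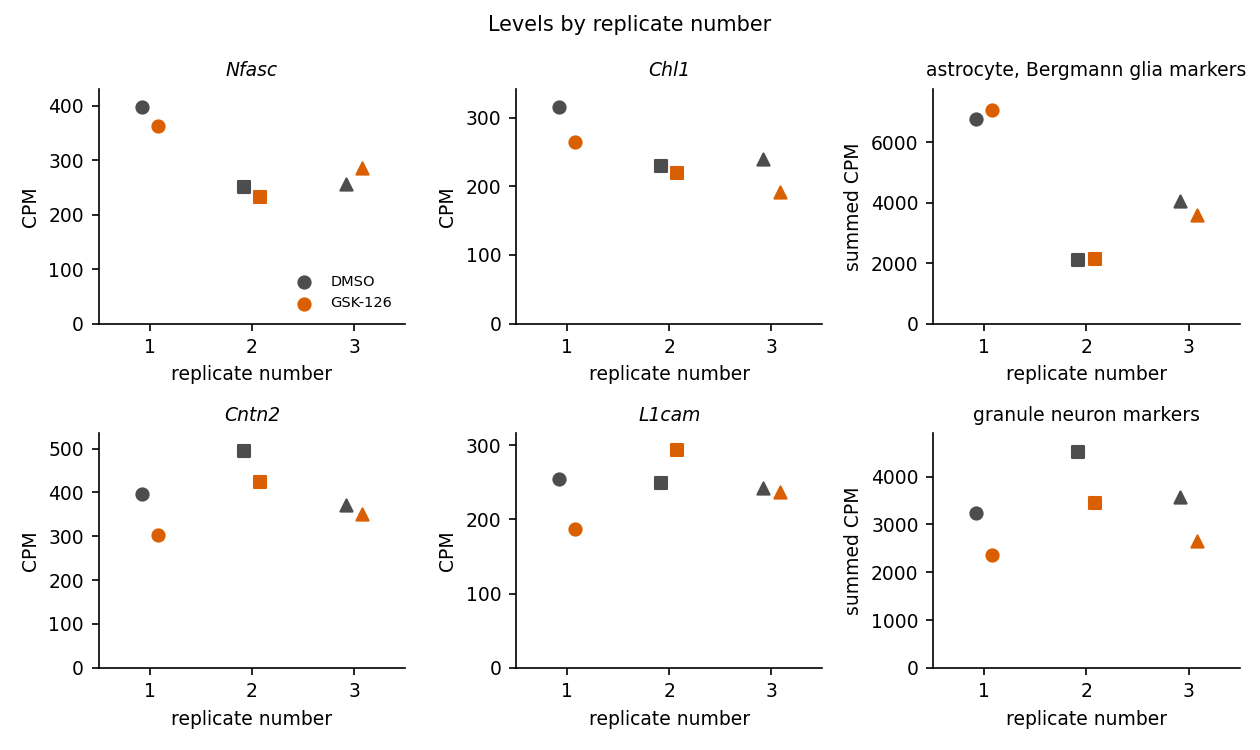
CPM of Nfasc, Chl1, Cntn2 and L1cam and summed CPM of 2 marker lists by replicate number, DMSO in grey and GSK-126 in orange, each axis from 0. Nfasc, Chl1 and the astrocyte and Bergmann glia markers are highest in replicate 1, and Cntn2 and the granule neuron markers in replicate 2 of each group.

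Described over the 6 libraries, with no test because the libraries share culture, depth and treatment, some members followed each other. Cntn2, Cntn6 and L1cam went together, with a Pearson r of log2 CPM of 0.81 for Cntn2 with Cntn6, 0.74 for Cntn2 with L1cam and 0.90 for Cntn6 with L1cam. Nfasc went with Cntn4 (r = 0.91) and Chl1 (r = 0.75) and against Cntn6 (r = -0.80), where Cntn4 rests on 23 to 82 reads per library. Other pairs reached similar values, such as Cntn1 with Nrcam (r = 0.70) and Cntn3 with L1cam (r = -0.75). The genes whose pattern was most like that of Cntn2 were 4933427D14Rik (r = 0.996), Ptprd (r = 0.996) and Cnst (r = 0.995), over the same 6 libraries. They are the highest values over all genes tested, and such values were not particular to Cntn2. The closest gene to Cntn5, which had 9 to 22 reads per library, was Gsap with r = 0.988.

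Several members are neighbours in the genome and differed in level all the same. Cntn2 and Nfasc lie 21.43 kb apart on chromosome 1 with no protein-coding gene between them, both on the minus strand. On chromosome 6 the order Cntn3, Chl1, Cntn6, Cntn4 has gaps of 937.5, 742.6 and 814.3 kb, each without a protein-coding gene. Chl1, at 19.8 RPKM, thus sits between Cntn3 at 0.570 and Cntn6 at 2.80, and the range of Chl1 over the libraries did not overlap that of either neighbour.

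Partner genes were read from lists named for their role, and here some transcripts did pass the test. The counts of each list stand beside 2.23% called higher and 1.42% called lower over all genes tested, and nothing particular to a list was tested. The share called differed by level, being 1.27% of genes with a mean of 1.80 to 18.2 CPM and 13.7% at 243 to 494 CPM. These shares count both directions, and the lists were not matched to them by level. Of the Caspr proteins, which join contactins at the paranode, 5 of 7 were tested, 0 were higher and 1 was lower, with a median log2 fold change of -0.37. Cntnap1, the partner of Cntn1 at paranodes, fell from 110 ± 42.4 to 68.6 ± 19.8 CPM (SD, n = 3 each), with 95.7, 157 and 76.2 CPM in the DMSO replicates and 57.0, 91.5 and 57.3 CPM in the GSK-126 replicates. It was lower in 3 of 3 pairs although the groups overlapped, and its log2 fold change was -0.65 ± 0.117 (adjusted p = 0.0128; 0.0934 without replicate 2). Cntnap2, the partner of Cntn2 and the second most abundant of the list per length, measured 82.9, 95.9 and 81.5 CPM with DMSO and 61.0, 78.4 and 62.8 CPM with GSK-126. The groups did not overlap, and the log2 fold change of -0.37 ± 0.110 did not pass (adjusted p = 0.102).

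Surface and matrix partners had 6 of 26 higher, 1 lower and a median of 0.13. Of the 3 integrin subunits on the list, which bind the L1cam ectodomain, both beta subunits were called and Itgav was not (log2 fold change 0.25 ± 0.116, adjusted p = 0.312; named after its value was seen). Itgb1 rose from 695 ± 66.0 to 979 ± 78.9 CPM (log2 fold change 0.50 ± 0.0952, adjusted p = 0.0173) and Itgb3 from 9.0 ± 2.64 to 19.8 ± 6.01 CPM (1.13 ± 0.196, adjusted p = 0.0114). Itgb1 had the highest level of the list at 205 RPKM, followed by Ptn, a growth factor that binds receptor phosphatases, at 179 RPKM with a log2 fold change of 0.10 (adjusted p = 0.730). The neuropilins, the receptors of class 3 semaphorins that pair with L1cam and Nrcam, both rose, Nrp1 by 0.46 ± 0.109 (adjusted p = 0.0449) and Nrp2 by 0.49 ± 0.107 (adjusted p = 0.0298) on the log2 scale. Egfr, a receptor tyrosine kinase that L1-type molecules can engage, rose by 0.59 ± 0.118 (adjusted p = 0.0218). Without replicate 2 the adjusted p was 0.148 for Itgb1, 0.195 for Nrp1, 0.0934 for Nrp2 and 0.111 for Egfr. Without replicate 3 it was 0.0834 for Itgb1, 0.0516 for Itgb3, 0.228 for Nrp1, 0.299 for Nrp2 and 0.0565 for Egfr.

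The tenascins moved in opposite directions. Tnr, the neuronal matrix ligand of contactins, measured 27.3, 80 and 15.7 CPM with DMSO and 16.2, 27.4 and 9.45 CPM with GSK-126, lower in each pair with overlapping groups. Its log2 fold change was -1.04 ± 0.189 (adjusted p = 0.0130), and without replicate 2, the highest of both groups, it was -0.73 (adjusted p = 0.148). Tnc, the tenascin of glia and mesenchyme, measured 395, 319 and 454 CPM with DMSO and 534, 428 and 607 CPM with GSK-126. It was higher in each pair, with a log2 fold change of 0.43 ± 0.0961 (adjusted p = 0.0348; 0.176 without replicate 2 and 0.240 without replicate 3). Fibroblast markers summed to 6700 to 8770 CPM with DMSO and 8800 to 9750 CPM with GSK-126, with 1 of 5 called higher, Col1a1. Endothelial and mural markers summed to 160 to 237 and 227 to 323 CPM, led by Pdgfrb. Of these, 2 of 5 tested were called higher, Flt1 and Pdgfrb. Cdh5 was not called and was lower in each pair (log2 fold change -0.30). Rgs5 (0.62) and Pecam1 (0.37) were positive and not called. The sums of both lists were higher with GSK-126 in each pair. Itgb1, Itgb3, Nrp1, Nrp2, Egfr and Tnc, and Msn among the cytoplasmic partners, had this direction too, though not all the same order of replicates. The part of these cell types in those results was not tested.

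Cytoplasmic partners had 1 of 24 higher, 1 lower and a median of -0.09. A total of 5 genes of the list were called with DESeq2 and 5 with no filter on low counts, against 0 without replicate 2 and 0 without replicate 3. Sptb, a spectrin of the ankyrin-bound skeleton, fell by 0.45 ± 0.103 on the log2 scale (adjusted p = 0.0358), from 225 ± 60.4 to 163 ± 35.6 CPM. Msn, one of the proteins that link L1cam to actin, rose by 0.42 ± 0.101 (adjusted p = 0.0477), from 239 ± 57.5 to 316 ± 53.9 CPM. Without replicates 2 and 3 in turn the adjusted p was 0.216 and 0.149 for Sptb and 0.257 and 0.197 for Msn. The ankyrins themselves, Ank1, Ank2 and Ank3, singled out here after their values were seen, were not called, with log2 fold changes of -0.16, -0.16 and -0.13 (adjusted p = 0.659, 0.529 and 0.666). The most abundant genes of the list per length were Hspa8, a chaperone that uncoats endocytosed vesicles, at 189 RPKM with a log2 fold change of 0.04, and Sptan1, the common alpha spectrin, at 95.9 RPKM with -0.23 (adjusted p = 0.898 and 0.258). Of the enzymes that cut L1-type molecules from the membrane, 0 of 5 were called in either direction, with a median of 0.09. Adam10 led them at 52.8 RPKM with a log2 fold change of -0.12, and Ncstn followed at 30 RPKM with 0.12 (adjusted p = 0.613 and 0.657).

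Sodium channel subunits that gather at neurofascin and contactin sites had 0 of 5 tested higher, 2 lower and a median of -0.32. Scn2a, a pore subunit and the most abundant of the list at 12.8 RPKM, measured 166, 250 and 156 CPM with DMSO and 97.2, 194 and 118 CPM with GSK-126. Its log2 fold change was -0.51 ± 0.116 (adjusted p = 0.0358; 0.0510, 0.0875 and 0.0791 without replicates 1, 2 and 3). Scn2b, a beta subunit with an immunoglobulin domain that binds contactin, fell by 0.66 ± 0.160 (adjusted p = 0.0467; 0.329 without replicate 2 and 0.0586 without replicate 3), from 40.6 ± 22.0 to 24.4 ± 7.64 CPM. Scn8a, the other pore subunit, stood at 11.5 RPKM with a log2 fold change of -0.32 ± 0.126 (adjusted p = 0.225).

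Other immunoglobulin-domain adhesion molecules gave a background for the set, with 0 of 26 higher, 2 lower and a median of -0.13. Kirrel3, a synaptic adhesion molecule, measured 112, 195 and 114 CPM with DMSO and 57.9, 117 and 66.7 CPM with GSK-126. It was lower in each pair, its log2 fold change was -0.82 ± 0.108 (adjusted p = 0.00344), and it was the only partner gene called here whose call held in all fits with the block, each replicate left out in turn included. Cadm3, an adhesion molecule of axons at 134 RPKM, fell by 0.59 ± 0.0995 (adjusted p = 0.0104; 0.129 without replicate 2), from 1170 ± 383 to 771 ± 199 CPM. Bsg led the list at 266 RPKM with a log2 fold change of 0.10 (adjusted p = 0.761).

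Genes of the premigratory stage that Cntn2 marks had 0 of 10 higher, 1 lower and a median of -0.01. The fitted value was positive for 5 of the 10 and negative for the rest. Among the positive ones were Tubb3 (0.36) and Sema6a (0.22), both higher in each pair, and Dcx (0.22), none of them called. Neurod1, a transcription factor of newborn granule neurons and the most abundant of the list at 220 RPKM, measured 656, 840 and 629 CPM with DMSO and 351, 682 and 437 CPM with GSK-126. It was the lower library in each pair with overlapping groups, and its log2 fold change was -0.58 ± 0.121 (adjusted p = 0.0265; 0.0530 without replicate 2). Stmn2, a tubulin-binding protein of growing neurites, stood next at 154 RPKM, with a log2 fold change of -0.22 ± 0.104 that did not pass (adjusted p = 0.323). Neurod1 also stands in the granule neuron marker list.

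**Figure D4:**
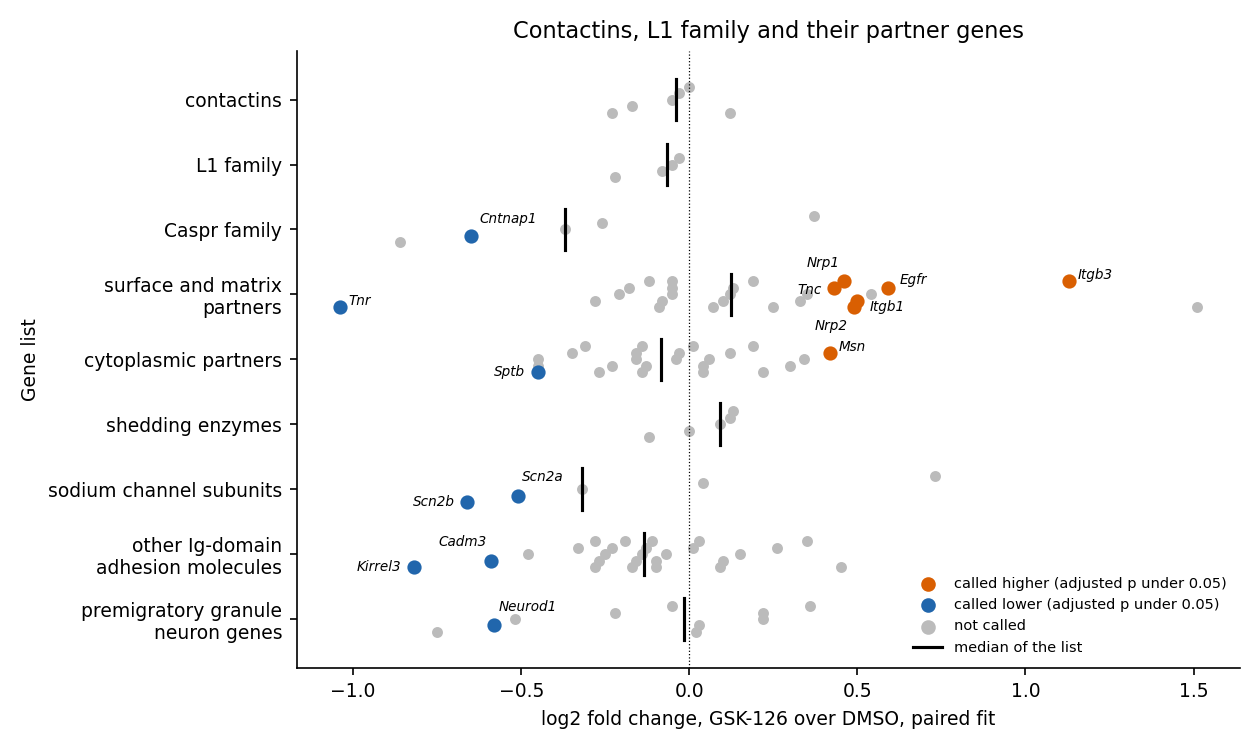
Log2 fold change of GSK-126 over DMSO in the paired fit for every tested gene of each list, with genes called higher in orange, called lower in blue, others in grey and a black bar at the list median. The contactins and the L1 family hold no called gene and medians of -0.04 and -0.06. The Caspr, sodium channel, other immunoglobulin-domain and premigratory lists hold only lower calls. These are 1 of 5, 2 of 5, 2 of 26 and 1 of 10 genes tested, beside 1.42% called lower over all genes.

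All 15 partner genes called in the paired fit lost the call without the replicate number, where their adjusted p ran from 0.786 to 0.839. Leaving out replicate 2 took the call from 13 of the 15, replicate 3 from 10 and replicate 1 from 1. Part of the exons of 6 of these genes overlaps a gene on the opposite strand, 5.64% of the bases for Neurod1, 3.97% for Cntnap1, 3.44% for Tnr, 2.26% for Tnc, 2.15% for Msn and 0.00823% for Sptb, and reads of such stretches could belong to either gene.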

How the data were processed

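RNA-seq counts per gene were used from 6 CGN cultures, 3 per agent. The authors trimmed reads with Trimmomatic 0.38, aligned them with STAR 2.7.2b to GRCm38 and deposited raw HTSeq counts over exons, not normalized and not pooled. The strand setting is not given in the sources used here, so overlapping genes on opposite strands cannot be told apart. The 5 HTSeq summary rows, which held from 58.4% to 60.9% of fragments, were dropped. Coordinates came from GENCODE M21 and promoters from RefSeq GRCm38.p6, matched by symbol for 10 of 10 members; printed windows were chosen among those outside exons whose start lies in an annotated transcript.

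Genes were filtered with filterByExpr, scaled by TMM and fitted with edgeR 4.0.16 (R 4.3.3; glmQLFit, glmQLFTest) with treatment and replicate number, adjusted by Benjamini-Hochberg over 16343 genes at a threshold of 0.05. Pairing was checked on deviations from the group means: r was 0.35, 0.50 and 0.52 for libraries of the same number and from -0.41 to -0.01 otherwise. Because each group is centred on its own mean, positive values for the same number make the others negative on balance. The contrast between them is therefore partly arithmetic. Every pair of libraries differed by more than sampling noise (chi-square per degree of freedom at least 10.9). The p-values measure the spread of the treatment difference between the 3 pairs, with dispersion estimated partly from all genes. Alternatives were no block, DESeq2 1.42.0 size factors, DESeq2, limma-voom (limma 3.58.1), no filter, each replicate left out, and other lengths. All members were named; of each partner list, the called genes (up to 6 per direction) and the 2 of highest RPKM were named, other genes for context after their values were seen. For Cntn2 the 3 most similar genes were named. Members and lists were chosen with earlier results of these data known.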

Additional observations from a re-analysis of the deposited data

How the results depend on the processing

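The number of members called was 0 in every alternative run, over 7 members with DESeq2, which gave no adjusted p for Cntn3, Cntn4 and Cntn5, and over 10 in the others. Over all genes edgeR called 0 without the replicate block (981 at an unadjusted p under 0.05), 1136 with no filter on low counts, and from 190 to 648 with 1 replicate left out; the calls given here rest on the pairing. Of the 15 partner genes called, Scn2b was lost with DESeq2-type size factors (adjusted p = 0.0520) and with DESeq2 (adjusted p = 0.0503).

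The sign was not stable for members near 0. Cntn1 was 0.00 with DESeq2-type size factors and with DESeq2, and 0.01 with no filter; Cntn6 was 0.01 without the block. With each replicate left out in turn the log2 fold change ran from -0.12 to 0.11 for Cntn1, from -0.51 to 0.02 for Cntn3, from -0.03 to 0.31 for Cntn4, from -0.21 to 0.12 for Cntn5, from -0.15 to 0.15 for Cntn6, from -0.22 to 0.10 for L1cam, from -0.12 to 0.03 for Nrcam and from -0.12 to 0.02 for Nfasc. Cntn2 (from -0.31 to -0.15) and Chl1 (from -0.28 to -0.16) kept their sign in all alternatives, with adjusted p from 0.258 to 0.853 and from 0.295 to 0.859. The cause of these shifts was not tested. Depth limits Cntn3, Cntn4 and Cntn5, which had 9 to 82 reads per library, and intervals cover only the spread between 3 pairs.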
